A study of Homo sapiens with 12 samples.

Results

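*KIF21B*, *SYNGR3*, *NOL4L* and *FAM222A* were the 4 genes described here, of 58302 genes in the count table and 15826 genes tested. They were selected on their log2 fold change (rapamycin over control) in a fit that blocks on the library number. Among genes called in that fit, with a mean level of 1 log2 CPM or more and with the same sign in pair 1 and pair 2, *KIF21B*, *SYNGR3* and *NOL4L* ranked 1, 2 and 3 of 589 rises and *FAM222A* ranked 2 of 529 falls. CPM is a gene's count scaled to a common library total after TMM, a correction for differences in composition between libraries. The ranking used the rapamycin and control values themselves, so these values are given as a description and without a test. All 4 genes passed the filter on low counts.

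RNA-seq covered 4 libraries of oral squamous cell carcinoma (OSCC) cells, 2 after 100 nM rapamycin and 2 untreated controls, with between 18492273 and 23763098 counts per library. m6A was mapped by MeRIP-seq, in which RNA carrying N6-methyladenosine is pulled down with an antibody and compared with its input, in HSC3 and CAL33 cells with and without rapamycin, as 1 peak list for each of the 4 combinations. The length of treatment was 3 days for MeRIP-seq and is not given for RNA-seq in the sources used here. HSC3 and CAL33 are established human OSCC lines. Nothing in the labels says that libraries of a group came from separate cultures, so p-values measure only the spread between these samples. In a fit without the block that spread includes the difference between numbers 1 and 2. In the blocked fit it is the disagreement between the pairs, which may be technical or a different response in numbers 1 and 2. Its source was not tested.

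How the cell lines are labelled in RNA-seq has to be stated before the values. The RNA-seq labels give HSC3 for both rapamycin libraries and CAL33 for both controls, under which treatment and cell line cannot be told apart, whereas in MeRIP-seq the number 1 marks HSC3 and the number 2 marks CAL33. In the RNA-seq counts the libraries that shared a number were alike, with correlations of log2 CPM across genes of 0.966 (number 1) and 0.956 (number 2) against 0.761 to 0.811 for the other library pairs. Of 357 tested genes with an m6A peak in both HSC3 lists and in no CAL33 list, 218 were higher in the number 1 library under both treatments and 74 were higher in the number 2 library, with a median difference (number 2 minus number 1) of -0.41 log2 in the controls and -0.48 log2 with rapamycin. For 189 genes with peaks in CAL33 alone the medians were 0.44 and 0.43 log2, and over all tested genes -0.03 and -0.04 log2. Of the 189, 56 were higher in number 1 and 105 in number 2 under both treatments. Among all 15826 tested genes these counts were 6414 and 5966. The counts thus separated the libraries by number and not by the cell line in the RNA-seq labels. Control 1, control 2, rapamycin 1 and rapamycin 2 are named below by treatment and number only, and the values of the 4 genes are given within both numbers.

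Rapamycin binds and inhibits mTOR complex 1, the kinase complex that couples nutrient supply to protein synthesis and holds autophagy in check, and it is used to induce autophagy in cultured cells. KIF21B is a kinesin-4 family motor that walks towards the plus ends of microtubules and regulates their growth, and it is best known from neurons and lymphocytes. SYNGR3 is a membrane protein of synaptic vesicles, NOL4L is a little-studied relative of the nucleolar protein NOL4, and FAM222A encodes aggregatin, a protein studied for its presence in amyloid plaques.

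Promoter sequence was at hand for *NOL4L*, which rose, and for *FAM222A*, which fell, and is shown because these genes moved in opposite directions. Each stretch runs 5′ to 3′ on the gene's strand from 250 bases before a transcription start to 50 bases after it (RefSeq, GRCh38.p14). Capitals mark GC boxes (GGGCGG) and CCAAT boxes (CCAAT), each searched on both strands, so that they also appear as CCGCCC and ATTGG, and runs of capitals longer than 6 bases are overlapping or adjacent GC boxes.
NOL4L, outer start site, chr20:32585284-32585583, minus strand: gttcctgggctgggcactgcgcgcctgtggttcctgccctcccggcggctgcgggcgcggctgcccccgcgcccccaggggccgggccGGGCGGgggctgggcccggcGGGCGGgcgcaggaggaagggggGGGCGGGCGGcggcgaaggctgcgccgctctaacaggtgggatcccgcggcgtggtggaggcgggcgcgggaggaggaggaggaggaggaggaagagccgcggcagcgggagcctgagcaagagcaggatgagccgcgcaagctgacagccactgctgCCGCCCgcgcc
NOL4L, inner start site, chr20:32483441-32483740, minus strand: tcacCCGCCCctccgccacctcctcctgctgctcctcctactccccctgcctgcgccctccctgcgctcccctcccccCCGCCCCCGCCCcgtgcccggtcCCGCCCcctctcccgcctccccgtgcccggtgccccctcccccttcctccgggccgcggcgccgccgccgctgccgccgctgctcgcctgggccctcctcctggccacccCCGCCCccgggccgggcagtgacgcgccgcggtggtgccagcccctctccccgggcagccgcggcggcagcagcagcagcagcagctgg
FAM222A, chr12:109713575-109713874, plus strand: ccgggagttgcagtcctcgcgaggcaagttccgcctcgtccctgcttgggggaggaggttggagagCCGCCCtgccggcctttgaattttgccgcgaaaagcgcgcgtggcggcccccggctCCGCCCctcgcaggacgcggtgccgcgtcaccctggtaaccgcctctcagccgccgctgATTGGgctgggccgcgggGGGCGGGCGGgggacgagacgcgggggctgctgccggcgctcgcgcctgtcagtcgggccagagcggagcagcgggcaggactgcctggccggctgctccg
All 3 stretches were rich in G and C, at 79%, 82% and 74.7%, against a median of 58.7% over 35116 RefSeq promoters of the same length. They held 36, 33 and 39 CpG dinucleotides against a median of 14. Both *NOL4L* promoters held 5 GC boxes and the *FAM222A* promoter held 4, with at least 1 GC box in 45% of all promoters. A CCAAT box stood only in the *FAM222A* promoter of these 3, at position -69 from the start, and 34.6% of all promoters hold one. None of the 3 held the E-box CACGTG (7.26% of all promoters), the CLEAR element of lysosomal genes (0.353%), the cAMP response element TGACGTCA (1.85%), the AP-1 site TGACTCA (4.95%) or the RE1 parts TTCAGCACC (0.376%) and GGACAGC (6.03%), all searched on both strands. The CLEAR element contains the E-box, so those searches overlap. A match is a match of letters and was not tested as a binding site.

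*KIF21B* (ENSG00000116852, chr1:200969390-201023714), the microtubule motor, had the largest rise in the ranking. Its level was 4.99 CPM in control 1, 1.06 CPM in control 2, 53.6 CPM in rapamycin 1 and 23.4 CPM in rapamycin 2. Both rapamycin libraries lay above both controls, and the lower of them exceeded the higher control 4.69-fold. The mean was 38.5 CPM ± 21.4 (SD, n = 2) with rapamycin and 3.02 CPM ± 2.78 (SD, n = 2) in control, a ratio of 12.7. The difference between the means was larger than either SD, and the SDs were wide because the number 1 library was the higher of each group. Within number 1 the difference was 3.40 log2 (10.6-fold) and within number 2 it was 4.35 log2 (20.3-fold). Of the 15826 tested genes, 2, *KIF21B* among them, rose in both pairs by at least 3.40 log2, the smaller of its differences. The choice of genes favoured large differences of the same sign in both pairs, so such counts are a description. Its lowest level rested on 25 counts in control 2 (exact 95% Poisson interval 16.2 to 36.9, counting error only) and its highest on 1019 counts in rapamycin 1.

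*SYNGR3* (ENSG00000127561, chr16:1989970-1994275), the synaptic vesicle protein, was listed at 1.29 CPM in control 1, 0.718 CPM in control 2, 6.73 CPM in rapamycin 1 and 11.03 CPM in rapamycin 2. Again the groups did not overlap, and the lower rapamycin library exceeded the higher control 5.21-fold. Means were 8.88 CPM ± 3.04 (SD, n = 2) with rapamycin and 1.01 CPM ± 0.406 (SD, n = 2) in control, a ratio of 8.83. Unlike *KIF21B*, *SYNGR3* was highest in rapamycin 2. The difference was 2.30 log2 (4.91-fold) within number 1 and 3.77 log2 (13.7-fold) within number 2. By the rule used for *KIF21B*, 43 tested genes, *SYNGR3* among them, rose by at least 2.30 log2 in both pairs. These levels rested on few reads, with 28 and 17 counts in the controls (intervals 18.6 to 40.5 and 9.9 to 27.2) and 128 and 201 counts with rapamycin.

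*NOL4L* (ENSG00000197183, chr20:32443059-32585333), the relative of NOL4, showed the same order of libraries as *KIF21B*. Its level was 8.59 CPM in control 1, 1.27 CPM in control 2, 33.5 CPM in rapamycin 1 and 23.2 CPM in rapamycin 2. The lower rapamycin library exceeded the higher control 2.70-fold, the narrowest gap of the 4 genes. The mean was 28.4 CPM ± 7.32 (SD, n = 2) with rapamycin and 4.93 CPM ± 5.18 (SD, n = 2) in control, a ratio of 5.76, and the control SD was larger than the control mean. The difference was 1.95 log2 (3.87-fold) within number 1 and 4.09 log2 (17.1-fold) within number 2. By the rule used for *KIF21B*, 97 tested genes, *NOL4L* among them, rose by at least 1.95 log2 in both pairs. Its lowest level rested on 30 counts in control 2 (interval 20.2 to 42.8), against 186 in control 1. The pair 2 difference exceeded that of pair 1 by 2.14 log2 for *NOL4L*, by 1.47 log2 for *SYNGR3* and by 0.95 log2 for *KIF21B*. These differences between pairs have no replicate check and were not tested.

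*FAM222A* (ENSG00000139438, chr12:109713825-109770495), the aggregatin gene, was the one gene of the 4 that fell. Its level was 16.1 CPM in control 1, 15.8 CPM in control 2, 1.63 CPM in rapamycin 1 and 1.81 CPM in rapamycin 2. The lower control exceeded the higher rapamycin library 8.73-fold, the widest gap of the 4 genes. Means were 1.72 CPM ± 0.127 (SD, n = 2) with rapamycin and 16.0 CPM ± 0.223 (SD, n = 2) in control, 9.28-fold apart. The fall was nearly the same size in both pairs, at -3.23 log2 within number 1 and -3.06 log2 within number 2. Taking its smaller difference as the limit, 2 of all tested genes, *FAM222A* among them, were at -3.06 log2 or lower in both pairs. The low levels rested on 31 and 33 counts (intervals 21.1 to 44.0 and 22.7 to 46.3), against 349 and 374 in the controls. In bulk RNA a change in the number of cells that make a transcript and a change per cell cannot be told apart, for this gene as for the others.

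**Figure D1:**
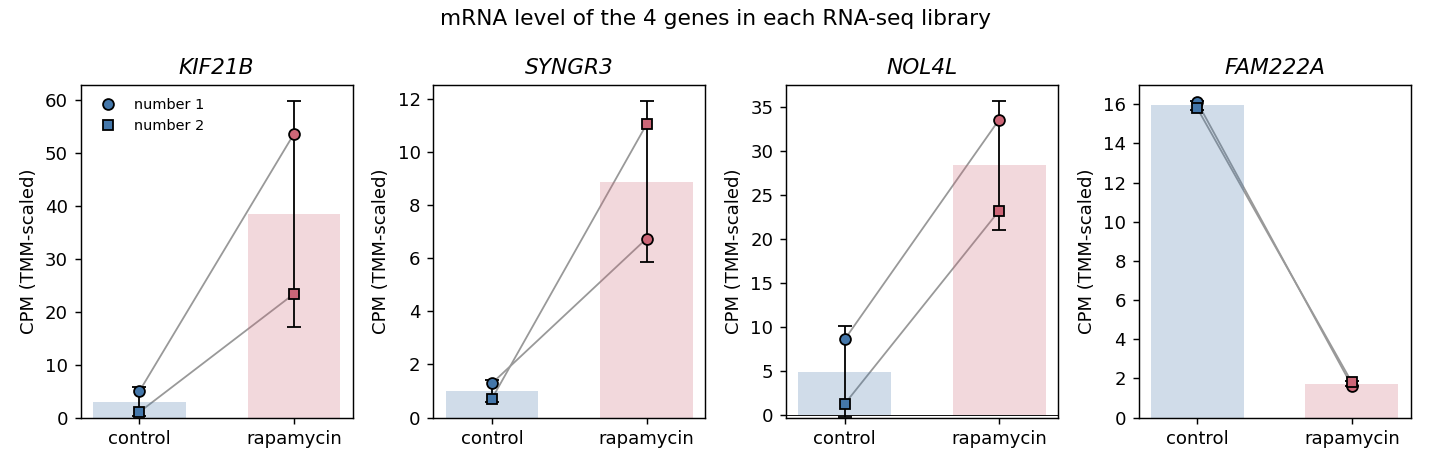
Level (CPM, linear axis) of *KIF21B*, *SYNGR3*, *NOL4L* and *FAM222A* in each of the 4 RNA-seq libraries, with 1 panel and its own scale per gene. Shaded bars with error bars are group means ± SD (n = 2), circles and squares are the number 1 and number 2 libraries, and lines join libraries with the same number. No gene has overlapping groups, and the *FAM222A* lines lie almost on each other.

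The table as a whole frames these values. Both rapamycin libraries lay above both controls for 15% of tested genes and below both for 16.5%, and the median size of the difference was 0.41 log2 within number 1 and 0.55 log2 within number 2. With edgeR's quasi-likelihood test and no block, 0 genes (0%) passed an adjusted p of 0.05, 446 had an unadjusted p under 0.05, and DESeq2 called 42. DESeq2 gave no adjusted p for 6750 of the tested genes, so its calls cover fewer genes than those of edgeR. Blocking on the number gave 1290 genes (8.15%) called, 736 higher (4.65%) and 554 lower (3.5%). The choice of the 4 genes used these calls, so nothing is read from their being among them. The blocked log2 fold change was 3.89 (SE 0.39) for *KIF21B*, 3.13 (SE 0.56) for *SYNGR3*, 2.98 (SE 0.51) for *NOL4L* and -3.21 (SE 0.46) for *FAM222A*. Without the block the values were 3.67, 3.13, 2.53 and -3.21. By the size of the blocked value over all tested genes, whatever their level or direction, the genes stood at ranks 15, 45, 60 and 35. Single libraries moved the values of *KIF21B* and *NOL4L*. Without control 1 the unblocked values were 5.12 and 4.42 log2, and without control 2 they were 2.94 and 1.72 log2. Without rapamycin 1 the *KIF21B* value was 2.93 log2.

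The genes just outside the 3 rises and around the fall show how close the choice was. *NTN5*, a netrin-family gene, followed *NOL4L* at a blocked log2 fold change of 2.86, with 2.38 and 3.08 log2 in pairs 1 and 2. *CCDC18-AS1* came next at 2.85, with 2.89 and 2.76 log2. Both had more even pairs than *NOL4L*, whose blocked value of 2.98 rested mostly on number 2. Among falls *KRT6A*, a keratin of stratified epithelium, stood above *FAM222A* at -5.46, with -3.12 and -6.09 log2, and is uncertain because reads can be shared with its near-identical copies *KRT6B* and *KRT6C*. Below *FAM222A* came *PCDH19*, a protocadherin, at -3.01, *CCN3*, a matricellular protein gene, at -2.87 and *GPER1*, a membrane oestrogen receptor gene, at -2.84. *PCDH19* moved by -0.74 log2 in number 1 and -3.40 log2 in number 2, whereas *FAM222A* moved alike in both.

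**Figure D2:**
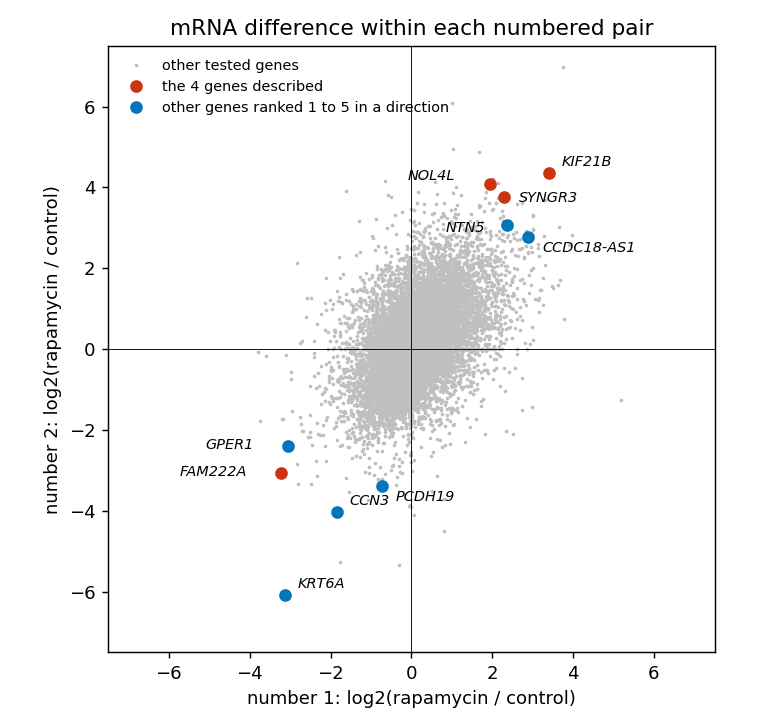
Difference between rapamycin and control within number 1 (horizontal axis, log2) and within number 2 (vertical axis, log2) for all tested genes. Red points are the 4 genes described and blue points the other genes ranked 1 to 5 in a direction. *KIF21B* lies at 3.40 and 4.35, *FAM222A* at -3.23 and -3.06, and *NOL4L* sits above the diagonal at 1.95 and 4.09.

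The genes were ranked by their rapamycin difference and not by the difference between the numbers of the libraries. The fit behind the choice held the same treatment and number terms on the same libraries. The p-values of the number comparison are therefore not independent of the choice. In a quasi-likelihood test of number 2 against number 1 with a treatment term, 5899 of 15826 genes (37.3%) were called, 2696 higher (17%) and 3203 lower (20.2%) in number 2. *KIF21B* was lower in number 2 by a log2 difference of -1.63 (SE 0.36, edgeR adjusted p = 0.000709). The number 1 library exceeded the number 2 library 4.41-fold in control and 2.29-fold with rapamycin. *NOL4L* was lower in number 2 by a log2 difference of -1.53 (SE 0.49, edgeR adjusted p = 0.026), with 6.37-fold in control and 1.44-fold with rapamycin. Both calls rested on the treatment term: without it the differences were -1.27 and -0.79 log2, with edgeR adjusted p of 0.551 and 0.678. For *SYNGR3* the log2 difference was 0.05 (SE 0.55, edgeR adjusted p = 0.951), made of -0.77 in control and 0.70 with rapamycin. For *FAM222A* it was 0.05 (SE 0.43, edgeR adjusted p = 0.945), with -0.03 and 0.14. Neither difference passed the test, and the SEs leave room for differences in either direction. Over all tested genes the median size of the difference between numbers was 0.67 log2 in control and 0.74 log2 with rapamycin, which *FAM222A* fell short of under both treatments. 2 of 4 genes called stands against 37.3% of all genes, and differences between the numbers were therefore common in the table.

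**Figure D3:**
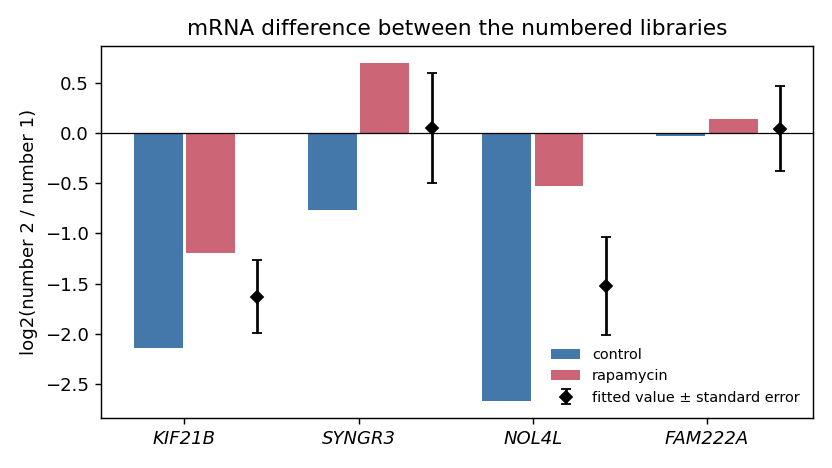
Difference between number 2 and number 1 (log2) for each of the 4 genes, in the control libraries (blue bars) and in the rapamycin libraries (red bars), with the fitted difference ± SE as diamonds. *KIF21B* and *NOL4L* lie below 0 under both treatments, at -2.14 and -1.19 and at -2.67 and -0.53, *SYNGR3* changes sign and *FAM222A* lies near 0.

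The profiles of the 3 rising genes were compared with each other and with the rest of the table. The distance between 2 genes was taken over their log2 levels in the 4 libraries, each centred on its own mean, so that 0 means the same pattern and 12172 genes whose mean level reached 1 log2 CPM could be compared. *KIF21B* and *NOL4L* were closest among the 4 genes at 1.04 log2, followed by *SYNGR3* and *NOL4L* at 1.602 and *KIF21B* and *SYNGR3* at 1.86. *FAM222A* lay between 6.21 and 7.24 from the others. The gene most like *SYNGR3* was *SLC7A11*, the cystine/glutamate antiporter, at a distance of 0.57 and with 20.4 and 11.4 CPM in the controls and 99.6 and 102.3 CPM with rapamycin, followed by *YPEL2* (0.65) and *NTN5* (0.70). The genes most like *NOL4L* were *TNXB* (0.28), *NATD1* (0.65) and *YPEL5* (0.85). *TNXB* was listed at 2.12, 0.296, 7.78 and 5.10 CPM in control 1, control 2, rapamycin 1 and rapamycin 2, and is uncertain because part of it is shared with the pseudogene *TNXA*. *NATD1* had 14.9, 1.48, 53.9 and 23.2 CPM in the same order, the order of libraries that *KIF21B* and *NOL4L* show. Closest to *KIF21B* after *NOL4L* were *TNXB* (1.20) and *NATD1* (1.28). Closest to *FAM222A* was *RBM14*, an RNA-binding protein gene, at 0.93, with 182.4 and 181.2 CPM in the controls and 41.6 and 34.1 CPM with rapamycin, followed by *TCAF2* (1.12) and *UBXN8* (1.18). The 4 genes were chosen on values of these same libraries, so the distances among them follow in part from the choice. With 4 libraries such likeness is a description.

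Of 6 paralogs of the 4 genes 4 were tested and 1, *SYNGR1*, was called in the blocked fit, against 8.15% of all genes, and nothing is read from a count of this size. *SYNGR1*, another synaptogyrin, had 18.7 CPM in control 1, 15.9 CPM in control 2, 26.9 CPM in rapamycin 1 and 62.6 CPM in rapamycin 2, a log2 fold change of 1.25 (SE 0.35, edgeR adjusted p = 0.0327 with the block and 0.9997 without). Its difference was 0.52 log2 within number 1 and 1.97 log2 within number 2. *SYNGR2*, the widely expressed synaptogyrin, had a log2 fold change of 0.38 (adjusted p = 0.378), with 0.34 and 0.42 log2 in pairs 1 and 2. *KIF21A*, the other kinesin-4 motor of the KIF21 type, was at 46.6 and 44.0 CPM in the controls and 35.8 and 28.03 CPM with rapamycin, a log2 fold change of -0.52 (adjusted p = 0.283). *FAM222B* was at 0.02 (adjusted p = 0.98), with 0.06 and -0.03 log2 in the pairs. *SYNGR4* stayed under the filter with between 4 and 10 counts per library, and *NOL4* had no count.

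*KIF21B* is a kinesin. Most mitotic kinesins fell, and the kinesins with other roles moved in both directions. Of 13 kinesins that serve the mitotic spindle and cytokinesis, 0 were called higher and 7 lower in the blocked fit (53.8%, against 3.5% of all genes called lower), with a median log2 fold change of -0.80 against 0.05 over all genes, and 12 of 13 were lower in both pairs. *KIF18B* fell by 1.23, *KIF20A* by 1.22, *CENPE* by 0.95 and *KIF20B* by 0.93 on the log2 scale, and the adjusted p of the 7 ran from 0.00525 to 0.0492. The pairs were -1.06 and -1.40 log2 for *KIF18B*, -1.31 and -0.57 log2 for *CENPE* and -1.02 and -0.84 log2 for *KIF20B*, and they were least alike for *KIF20A* of these 4, at -1.995 and -0.455 log2. The number of these calls depended on the scaling: with the block it was 1 with upper-quartile scaling and 3 with library totals. Without the block 0 were called. Of 29 kinesins with other roles, 19 were tested and 1 was called with the block (5.26%, against 8.15% of all genes). That count is no result about these kinesins. The called gene was *KIF13B*, a transport motor, at a log2 fold change of 1.05 (edgeR adjusted p = 0.0348), with 0.49 and 1.59 log2 in the pairs. The median of these kinesins was 0.07, with 9 of 19 higher and 7 lower in both pairs. *KIF21B*, chosen for its rise, was at 3.89 in the same fit.

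**Figure D4:**
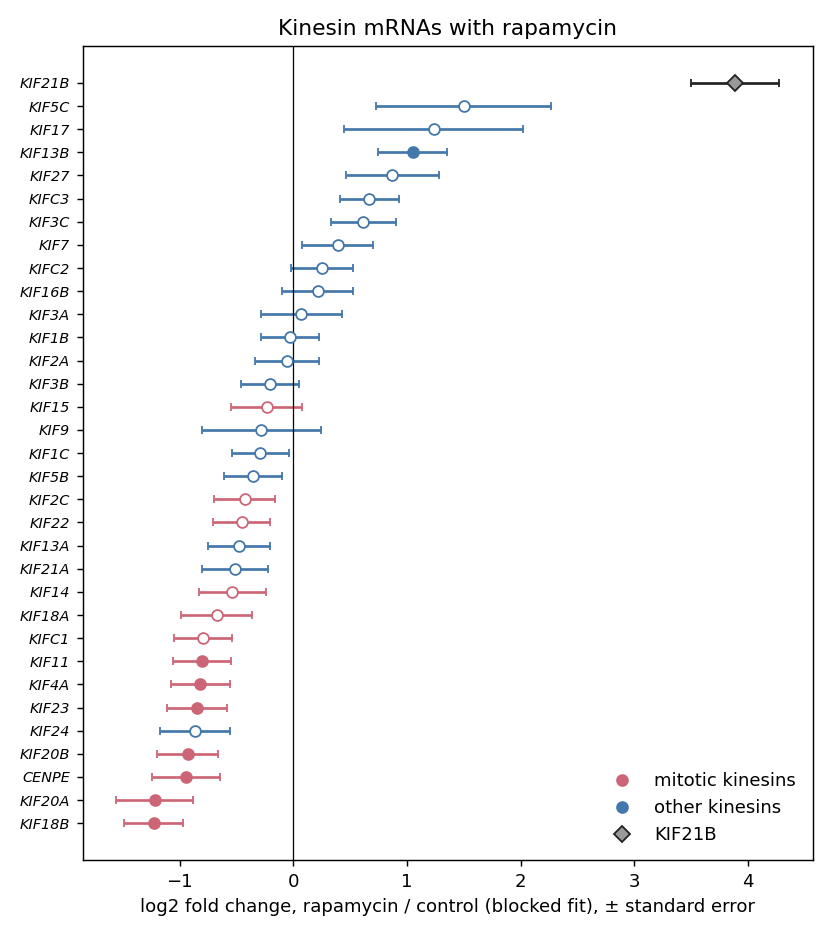
Blocked log2 fold change (rapamycin over control) of the tested mitotic kinesins, of the tested other kinesins and of *KIF21B*, with bars of ± SE. Filled circles are genes called in the blocked fit and open circles are genes that were not. The mitotic kinesins have a median of -0.80, the others a median of 0.07 and *KIF21B* a value of 3.89.

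*SYNGR3* belongs to the machinery of synaptic vesicles and transmitter release. Of 42 genes of this machinery 25 were tested, 4 were called higher and 0 lower in the blocked fit (16%, against 4.65% of all genes called higher). The median log2 fold change was 0.33, with 11 of 25 higher and 5 lower in both pairs. The called genes included *SYNGR1* at 1.25 (edgeR adjusted p = 0.0327) and *SYT7*, a calcium sensor of exocytosis, at 1.02 (edgeR adjusted p = 0.0456), with 0.44 and 1.61 log2 in the pairs of *SYT7*. With the block, 4 were called with upper-quartile scaling and 2 with library totals, and 0 without the block. Of 20 neuronal markers 7 had no count in any library and 7 were tested. Of these 1 was called higher and 0 lower (14.3%, against 4.65% of all genes called higher), and nothing is read from a count of this size. Their median log2 fold change was -0.02, with 2 of 7 higher and 3 lower in both pairs. The called marker was *MAP2*, a dendritic microtubule-associated protein gene, at a log2 fold change of 1.42 (edgeR adjusted p = 0.0336), with 1.07 and 1.76 log2 in the pairs. The summed level of the neuronal markers was 244 CPM in control 1, 11.2 CPM in control 2, 338 CPM in rapamycin 1 and 14.6 CPM in rapamycin 2, and most of the number 1 level was *L1CAM*, a cell adhesion molecule, at 205 and 289 CPM. This sum followed the number of the library more than the treatment, and its part in the values of the 4 genes was not tested.

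Markers of the labelled cell type and of other cell types were read beside these values. Of 8 squamous epithelial markers all were tested, and *KRT5*, *KRT6A* and *KRT14* were called lower in the blocked fit (37.5%, against 3.5% of all genes called lower). *KRT14* had no count in either number 1 library, so its value rests on number 2. The other 5 were not called. Of these *SFN* (14-3-3 sigma) was at -0.32 and -1.50 log2 and *EPCAM* at -0.32 and -0.07 log2 in pairs 1 and 2. The keratin *KRT17* was at 0.04 and 0.65 log2, the basal cell factor *TP63* at -0.54 and 0.09 log2 and E-cadherin (*CDH1*) at -0.13 and 0.30 log2. The summed level of the 8 was 1082 CPM in control 1, 4783 CPM in control 2, 879 CPM in rapamycin 1 and 3422 CPM in rapamycin 2. The basal keratin *KRT5* was at 34.2 and 6.10 CPM in the number 1 libraries and at 1703 and 327 CPM in the number 2 libraries, so that the number 1 libraries were poor in it under both treatments. Of 9 fibroblast, immune and endothelial markers 4 had no count and 4 were tested. With edgeR and the block 0 were called (0%, against 8.15% of all genes), and nothing is read from a count of this size. Their summed level lay between 13.9 and 32.7 CPM. The part of these markers in the values of the 4 genes was not tested.

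m6A peaks were sparse on the 4 genes. *NOL4L* had 1 peak, in the HSC3 control list, in its 3′ UTR on the minus strand at chr20:32447468-32447588, 121 bases long. Its fold enrichment of 11.2 stood at percentile 21.8 of the 3930 peaks of that list, whose median was 33.6, and its false discovery rate was 0.245, so it did not pass 0.05. *NOL4L* had no peak in the HSC3 rapamycin list or in either CAL33 list, and *KIF21B*, *SYNGR3* and *FAM222A* had none in any list. Of tested genes with a level within 0.5 log2 CPM of each, 36.4% had at least 1 peak in some list for *KIF21B*, 22.1% for *SYNGR3*, 36.4% for *NOL4L* and 29.2% for *FAM222A*. Having no peak was therefore the common case at these levels. Of the paralogs *FAM222B* alone had peaks, with a fold enrichment of 146 at chr17:28758015-28758255 in its 3′ UTR in HSC3 control and of 43.7 and 62.9 at chr17:28759124-28759394 and chr17:28759484-28759663 in its coding sequence in HSC3 with rapamycin. With 1 immunoprecipitated library and 1 input behind each list, the presence of a peak in one list and not in another has no replicate check. The depth behind the peak values is unknown.

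The loci of the 4 genes lay on different chromosomes. Of 24 protein-coding neighbours 20 were tested and 1 was called in the blocked fit, *MVK*, the mevalonate kinase of sterol synthesis, which lies 115700 bp from *FAM222A* and fell by 1.19 on the log2 scale (edgeR adjusted p = 0.0197), with -0.76 and -1.61 log2 in pairs 1 and 2. Over all genes 8.15% were called in that fit, so 1 of 20 is no result about the neighbours. *TRPV4*, a calcium channel gene 12592 bp from *FAM222A*, had a log2 fold change of 0.39 (adjusted p = 0.638), with opposite signs in the pairs (-0.57 and 1.34 log2). Beside *SYNGR3*, *GFER*, a mitochondrial sulfhydryl oxidase gene 2221 bp away, had -0.38 (adjusted p = 0.462, pairs -0.80 and 0.03 log2) and *ZNF598*, a ribosome quality control gene 3379 bp away, had 0.37 (adjusted p = 0.391, pairs 0.26 and 0.48 log2). *ASXL1*, a chromatin regulator gene 3740 bp from *NOL4L*, had -0.30 (adjusted p = 0.51, pairs -0.44 and -0.15 log2), and *CACNA1S*, 15798 bp from *KIF21B*, held too few counts to be tested. *FAM222A-AS1* overlaps *FAM222A* and had 4.53 and 2.103 CPM in control 1 and rapamycin 1 and no count in the number 2 libraries, with a log2 fold change of -1.09 (edgeR adjusted p = 0.439). The use of strand in counting is not given in the sources used here, so reads of *FAM222A* and its antisense gene, and of *NOL4L* and the antisense RNAs that overlap it, may not be told apart.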

How the data were processed

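For the 4 RNA-seq libraries the authors deposited unnormalized gene counts under Ensembl identifiers, of which 57532 of 58302 were matched to a symbol. The peak lists that the authors deposited, 1 for each immunoprecipitated library with its input, hold a fold enrichment (ratio), a p-value and the log10 of the false discovery rate. The submitters' processing notes list cutadapt 2.5, HISAT2 2.1.0, featureCounts 1.6.3, HOMER 4.10.4 and hg38, while the count table is named for HTSeq. Which of them made the counts, and its settings, are not given in the sources used here.

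Models were fitted with edgeR 4.0.16 in R 4.3.3 (filterByExpr, TMM, robust quasi-likelihood test, Benjamini-Hochberg adjustment at 0.05 over all genes tested). SEs were derived from the fold change and its F statistic. Log2 CPM used a prior count of 2. The numbers were treated as pairs after a check: the number 2 minus number 1 differences of the controls and of the rapamycin libraries had r = 0.901 across 15826 genes, which are not independent replicates, and in MeRIP-seq a number marks a cell line. The main fit had no block and the blocked fit was an alternative, as were DESeq2 1.42.0, other scalings, other filters and leaving out each library. Scripts were tested on simulated data. Peaks and RefSeq promoters (GRCh38.p14, 2 of the 4 genes matched) were read in Python 3.11.15. No column of another sample stood in the table.

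The members, lists and neighbours were chosen with earlier results of these data known. Named were the 4 genes, their paralogs and neighbours, the genes ranked 1 to 5 in each direction, the 3 most alike genes of each, and of each list at most the 4 called genes with the largest fold changes in a direction. *L1CAM* and the squamous markers that were not called were named after their values were seen. Some called genes of one list are not reported here.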

Additional observations from a re-analysis of the deposited data

How the results depend on the processing

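Rapamycin calls numbered 0 without the block and with each library left out (0 to 0), 1290 with the replicate block and 42 with DESeq2. Leaving out each library gave log2 fold changes of 2.93 to 5.12 for *KIF21B*, 2.72 to 3.55 for *SYNGR3*, 1.72 to 4.42 for *NOL4L* and -3.31 to -3.16 for *FAM222A*. With the block, DESeq2, other scalings, filters and a prior count of 2, the values were 3.63 to 3.89, 3.03 to 3.19, 2.49 to 2.98 and -3.25 to -3.14. No direction changed under any of these settings. The genes were chosen for large differences of the same sign in both pairs, so this is no test of their direction. The neighbour *MVK* and the squamous markers *KRT5*, *KRT6A* and *KRT14* were also called with the block and not without it.

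Of the comparison between numbers, 5899 calls became 3927 with at least 10 counts in every library and 3057 without the treatment term. Without that term *KIF21B* was at -1.27 and *NOL4L* at -0.79 and both lost the call. *SYNGR3* turned to -0.01 with upper-quartile scaling and -0.046 with DESeq2, and *FAM222A* to -0.012 with upper-quartile scaling and -0.009 without the treatment term, all from values near 0. With each library left out, a fit without residual degrees of freedom that gives values and no test, the ranges were -2.24 to -1.21 for *KIF21B*, -2.76 to -0.54 for *NOL4L*, -0.85 to 0.70 for *SYNGR3* and -0.031 to 0.141 for *FAM222A*. Each such value comes from the treatment that keeps both numbers. The ranges therefore restate the differences within control and within rapamycin and are no check of them.

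The counts of called list genes with the block, which were 0 without it, were 7 mitotic kinesins, 1 other kinesin, 1 paralog, 4 synaptic vesicle genes and 1 neuronal marker. Added after the data were seen, the block with upper-quartile scaling gave 1, 1, 1, 4 and 1, and the block with library totals gave 3, 1, 1, 2 and 1. The *NOL4L* peak in HSC3 control was lost at a false discovery rate of 0.05, which left 0 peaks. No value came from the stricter overlap rule for peaks, since no peaks of these genes overlapped. The cause of these shifts was not tested. With 2 libraries a group and between 17 and 31 counts in the lowest library of each gene, fold changes are imprecise, and the SEs of the blocked fit rest on 1 residual degree of freedom before moderation.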
